A study of Mus musculus with 13 samples.

Results

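The genes described here are the collagen genes of the mouse liver: all protein-coding rows of the deposited count table whose symbol is Col, a type number, the letter a and a chain number. The rule took 44 of 54532 rows, and by their textbook class they were 11 fibrillar chains, 6 basement membrane chains of type IV, 6 beaded filament chains of type VI, 9 fibril-associated chains, 4 transmembrane chains, 2 multiplexins, 3 short chain network chains, 1 anchoring fibril chain (Col7a1) and 2 others (Col26a1 and Col28a1). Livers of 13 libraries in 4 groups were profiled by RNA sequencing, with dmPGE2, a stable analogue of prostaglandin E2, given before or without an acute injury. The injury (GalN/LPS) combined D-galactosamine, which blocks transcription in hepatocytes, with the bacterial product LPS. The mice were wild type C57 BL6, 8 weeks old. Pretreated livers (n = 4) had 300 µg/kg dmPGE2 and, 1 h later, 500 mg/kg D-galactosamine plus 5 µg/kg LPS, all injected into the peritoneum. GalN/LPS livers (n = 3) had the same injury without dmPGE2, and dmPGE2 livers (n = 3) had dmPGE2 at 300 µg/kg alone. Saline livers (n = 3) had saline, and the labels give collection at 6 h for all of them. For dmPGE2 alone the interval before collection was not recorded, so it may differ from that of the pretreated livers. The series text speaks of AILI mice, and the sample labels, which name GalN/LPS, were followed. The labels do not tie libraries to single animals. If several share one, the tests see no more than the variation among these libraries, which may be technical. Summed hepatocyte markers, at 67360 CPM or more in every library, fit the labelled tissue.

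Collagens are matrix proteins whose chains wind around each other into a helix. Fibrillar collagens of types I, III and V make the tensile fibrils of portal tracts and scars, type IV makes the sheet under epithelia and vessels, type VI makes fine filaments around cells, and fibril-associated types sit on the fibril surface. In the liver, hepatic stellate cells and portal fibroblasts are the known makers of fibrillar collagen, endothelial cells also make type IV, and hepatocytes are a known source of Col18a1. The sinusoid has little continuous basement membrane, and deposition of collagen there is a hallmark of fibrosis, which develops over a longer time than the hours studied here.

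The promoters of the chains with the largest or most divergent values are shown first. Of the 44 genes, 35 had an entry in the RefSeq table of promoters (GRCm38.p6), with 38 windows from 250 bases before to 50 after an annotated start, printed on the gene's own strand. Col1a1 and Col14a1 had none. Capitals mark matches on either strand to 3 motifs, wherever in the window they lie. These were the GC box spelled GGGCGG, the box named for its letters CCAAT, and the letters TATAAA. Col4a1 and Col4a2 lie head to head on chromosome 8, overlapped by 22 bases in the deposited coordinates, and are shown because their windows share 78 bases (chr8:11312777-11312854) and carry the most abundant chains after Col18a1 in injured livers.
Col4a1, chr8:11312777-11313076, minus strand: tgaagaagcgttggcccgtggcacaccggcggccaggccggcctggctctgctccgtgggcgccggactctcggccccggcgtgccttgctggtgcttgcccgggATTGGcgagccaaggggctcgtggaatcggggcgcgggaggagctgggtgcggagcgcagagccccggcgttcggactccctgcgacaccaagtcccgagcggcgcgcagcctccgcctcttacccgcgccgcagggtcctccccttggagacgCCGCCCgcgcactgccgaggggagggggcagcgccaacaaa
Col4a2, chr8:11312555-11312854, plus strand: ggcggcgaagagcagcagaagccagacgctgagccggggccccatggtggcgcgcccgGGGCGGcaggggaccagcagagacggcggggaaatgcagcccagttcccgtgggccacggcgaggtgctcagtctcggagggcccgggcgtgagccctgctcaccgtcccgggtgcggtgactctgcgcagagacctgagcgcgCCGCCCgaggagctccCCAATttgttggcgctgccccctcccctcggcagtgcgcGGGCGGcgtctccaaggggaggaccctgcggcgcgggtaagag
Col1a2 and Col3a1, of the fibrillar chains with windows, are shown to set a window with GC boxes beside one with a TATAAA match. The deposited start of Col1a2 (chr6:4504814) lies before the RefSeq start used for its window (chr6:4505618).
Col1a2, chr6:4505368-4505667, plus strand: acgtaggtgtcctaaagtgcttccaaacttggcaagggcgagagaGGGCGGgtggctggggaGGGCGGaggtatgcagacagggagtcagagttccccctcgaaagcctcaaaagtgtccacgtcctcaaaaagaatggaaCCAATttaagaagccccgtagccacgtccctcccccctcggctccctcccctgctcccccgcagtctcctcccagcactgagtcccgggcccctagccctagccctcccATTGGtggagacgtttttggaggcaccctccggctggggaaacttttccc
Col3a1, chr1:45311288-45311587, plus strand: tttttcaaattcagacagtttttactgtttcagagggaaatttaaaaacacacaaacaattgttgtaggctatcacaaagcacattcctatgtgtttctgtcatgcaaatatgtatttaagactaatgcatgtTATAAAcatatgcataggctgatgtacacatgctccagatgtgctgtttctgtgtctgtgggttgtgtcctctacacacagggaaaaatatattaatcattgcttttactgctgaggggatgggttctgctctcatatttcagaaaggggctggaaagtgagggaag
Col13a1 had the largest rise of the collagens, and Col18a1 the highest level, from a gene with a pair of RefSeq starts that the deposited counts do not separate.
Col13a1, chr10:61979059-61979358, minus strand: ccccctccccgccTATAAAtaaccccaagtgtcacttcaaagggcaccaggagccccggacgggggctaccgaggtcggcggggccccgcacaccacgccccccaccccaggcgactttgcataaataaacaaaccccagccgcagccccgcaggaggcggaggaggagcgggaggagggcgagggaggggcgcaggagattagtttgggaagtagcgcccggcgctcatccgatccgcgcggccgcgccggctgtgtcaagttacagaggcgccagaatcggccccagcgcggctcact
Col18a1, upstream start, chr10:77166481-77166780, minus strand: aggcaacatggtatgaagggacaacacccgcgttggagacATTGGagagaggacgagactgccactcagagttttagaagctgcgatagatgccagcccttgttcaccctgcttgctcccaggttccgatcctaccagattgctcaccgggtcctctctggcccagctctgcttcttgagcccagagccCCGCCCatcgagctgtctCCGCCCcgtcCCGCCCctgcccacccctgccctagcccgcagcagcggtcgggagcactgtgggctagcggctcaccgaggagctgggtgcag
Col18a1, downstream start, chr10:77113656-77113955, minus strand: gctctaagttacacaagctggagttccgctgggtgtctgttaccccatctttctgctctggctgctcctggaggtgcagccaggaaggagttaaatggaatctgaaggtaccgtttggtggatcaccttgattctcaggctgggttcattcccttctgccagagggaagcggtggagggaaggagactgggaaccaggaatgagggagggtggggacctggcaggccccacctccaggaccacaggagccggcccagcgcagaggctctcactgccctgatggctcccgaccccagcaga

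A GC box stood in 23 of the 38 collagen windows (60.5%) and in 35.7% of all 32851 promoter windows of the table. The CCAAT box was in 13 collagen windows (34.2%) and in 37.4% of all windows, and TATAAA in 5 (13.2%) and in 13.6%. An AP-1 site (TGANTCA, searched on both strands like the others) was in 1 collagen window, that of Col6a1 (2.63%), against 7.81% of all windows. Col4a2 held 3 GC boxes and 1 CCAAT box, Col1a2 held 2 of each, and the upstream start of Col18a1 held 3 GC boxes and 1 CCAAT box. Col3a1 and Col13a1 each held 1 TATAAA and neither of the others. That of Col3a1 lies near the middle of its window and that of Col13a1 near the far upstream end, so neither stands beside the start. These matches describe the letters of the windows and not bound sites.

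Library totals lay between 16910816 and 17649675 counts in pretreated, 16575171 and 17709049 in GalN/LPS, 14829838 and 20777809 in dmPGE2 and 17018104 and 18425824 in saline libraries. Levels between samples are read counts scaled to library size and TMM factor (CPM), and levels between genes are the deposited FPKM, which are per length. TMM factors were 0.683 to 0.830 in pretreated, 0.904 to 1.14 in GalN/LPS, 1.16 to 1.29 in dmPGE2 and 1.17 to 1.18 in saline libraries. With library totals in their place the median log2 fold change of all genes moved to -0.61 (from -0.10) for pretreated against GalN/LPS livers and to -0.54 (from 0.14) for pretreated against saline livers. Changes are tested with edgeR's quasi-likelihood test on all 14280 genes that passed its filter on low counts, with Benjamini-Hochberg adjustment at 0.05 over all of them. Fold changes are on the log2 scale with their standard error (SE), the group named first over the other. In collagen values, pretreated 2 was the highest library of its group in 15 of 24 genes (25.4% of all genes), and GalN/LPS 2 the lowest of its group in 17 of 24 (40.4% of all genes).

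Of the 44 collagen genes, 24 passed the filter and 20 had too few counts to be tested. A gene could pass through its level in 1 group alone, so the 24 do not stand for the 44. The tested genes held 8 of 11 fibrillar, 3 of 6 basement membrane, 4 of 6 beaded filament, 4 of 9 fibril-associated, 2 of 4 transmembrane, both multiplexin and 1 of 3 short chain network genes. No read was counted in any library for Col2a1, the chain of cartilage fibrils, nor for Col9a1, Col19a1 and Col26a1, which at 3 counts of 229145023 allows up to 0.0131 CPM on unscaled totals, for counting error only. The other 16 had between 1 count (Col11a1, in a GalN/LPS library) and 94 counts (Col6a6) over all 13 libraries, and at most 18 in any library. Type IV chains of the kidney and lung membranes were among them, with 77 counts for Col4a3, 65 for Col4a4 and 49 for Col4a6. Col4a4 had 5 counts in pretreated, 32 in GalN/LPS, 14 in dmPGE2 and 14 in saline livers, and Col7a1, the anchoring fibril of skin, had 12, 39, 7 and 8 in the same groups. The rest were Col9a3 (63), Col23a1 (56), Col8a2 (23), Col10a1 (22), Col28a1 (15), Col24a1 (13), Col9a2 (13), Col17a1 (10), Col22a1 (9) and Col6a4 (7).

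**Figure D1:**
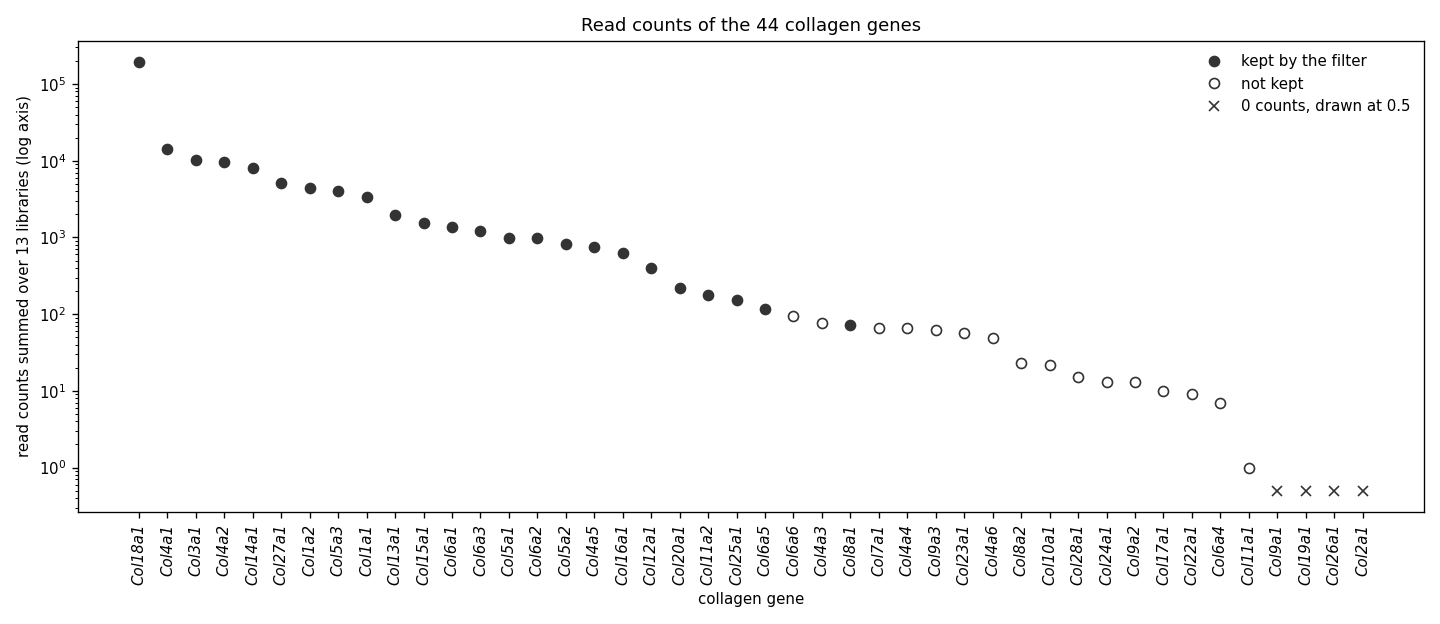
Read counts of each of the 44 collagen genes summed over the 13 libraries, on a log axis. Filled points passed the filter on low counts, open points did not, and crosses are the 4 genes with 0 counts. Col18a1, with 193452 counts, stands above all others, and Col4a1 follows with 14319.

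By FPKM, Col18a1 was first in every group, at 174.7 ± 9.64 in pretreated, 98.2 ± 11.5 in GalN/LPS, 105.9 ± 8.41 in dmPGE2 and 95.9 ± 5.30 in saline livers (SD). Col4a1 came after it in pretreated (7.28 ± 4.36 FPKM), GalN/LPS (21.2 ± 6.49) and dmPGE2 livers (3.22 ± 0.593), and Col3a1 (2.82 ± 1.10 FPKM) in saline livers. In saline livers Col3a1, Col4a1 (2.32 ± 0.713), Col27a1 (2.29 ± 1.29), Col14a1 (2.20 ± 0.699), Col4a2 (1.95 ± 0.222) and Col5a3 (1.94 ± 0.346) lay within their spreads of each other. Summed over the 44 genes, collagen mRNA was 1378 to 1761 CPM in pretreated, 1256 to 1389 in GalN/LPS, 816.8 to 932.4 in dmPGE2 and 783 to 880.6 in saline livers. Without Col18a1 the sum was 196.3 to 408.1 CPM in pretreated livers, 447 to 779.1 in GalN/LPS livers, 138 to 180.5 in dmPGE2 livers and 144.3 to 188.7 in saline livers. Col18a1 alone stood at 609.8 of 1389 CPM in GalN/LPS 1 and made up more of the sum in the other groups. Without it the GalN/LPS livers stood above every other library. These sums, and those of gene lists below, use the TMM factors, which were lowest in pretreated libraries and so raise the sums there. Sums on library totals were not taken.

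Most of the tested collagens were higher in GalN/LPS than in saline livers at 6 h, across the fibrillar, basement membrane and beaded filament classes. These are levels relative to all RNA of bulk liver, where more cells of a type and more RNA per cell cannot be told apart. Against saline livers 17 of 24 collagens were higher and 2 lower, where 27.4% and 25.6% of all 14280 genes were. Their median log2 fold change was 1.75, and that of all genes 0.02. Higher were 7 of 8 fibrillar, 3 of 3 basement membrane, 4 of 4 beaded filament, 2 of 4 fibril-associated and 1 of 2 transmembrane genes. Among them Col11a2 had 90 counts in GalN/LPS and 21 in saline livers, and Col6a5 had 70 and 13. Both may have passed the filter through GalN/LPS livers alone, so their calls add no support to these class counts. Col15a1, a multiplexin, and Col25a1, a transmembrane collagen, were lower. Col25a1 had 6 counts in GalN/LPS and 80 in saline livers. It may have passed the filter through uninjured livers alone, which favours this direction, so its call adds no support either. The remaining 5 (Col18a1, Col27a1, Col12a1, Col20a1 and Col8a1) did not pass the test.

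With dmPGE2 before the injury, most of these classes were lower than in GalN/LPS livers, and Col18a1 was higher. Pretreated against GalN/LPS livers gave 14 lower and 1 higher of the 24, where 30.1% of all genes were lower and 24.4% higher. The collagen median was -1.47 and that of all genes -0.10. Lower were 5 of 8 fibrillar, 2 of 3 basement membrane, 4 of 4 beaded filament, 2 of 4 fibril-associated and 1 of 2 transmembrane genes. The limit of the filter named for Col6a5 holds here too. The GalN/LPS libraries stand in both comparisons, so a high value in them alone moves the differences in opposite directions. With library totals 17 were lower and 1 higher, with Col5a3, Col11a2 and Col27a1 added to the lower ones, and of all genes 47.6% were then lower and 4.31% higher.

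**Figure D2:**
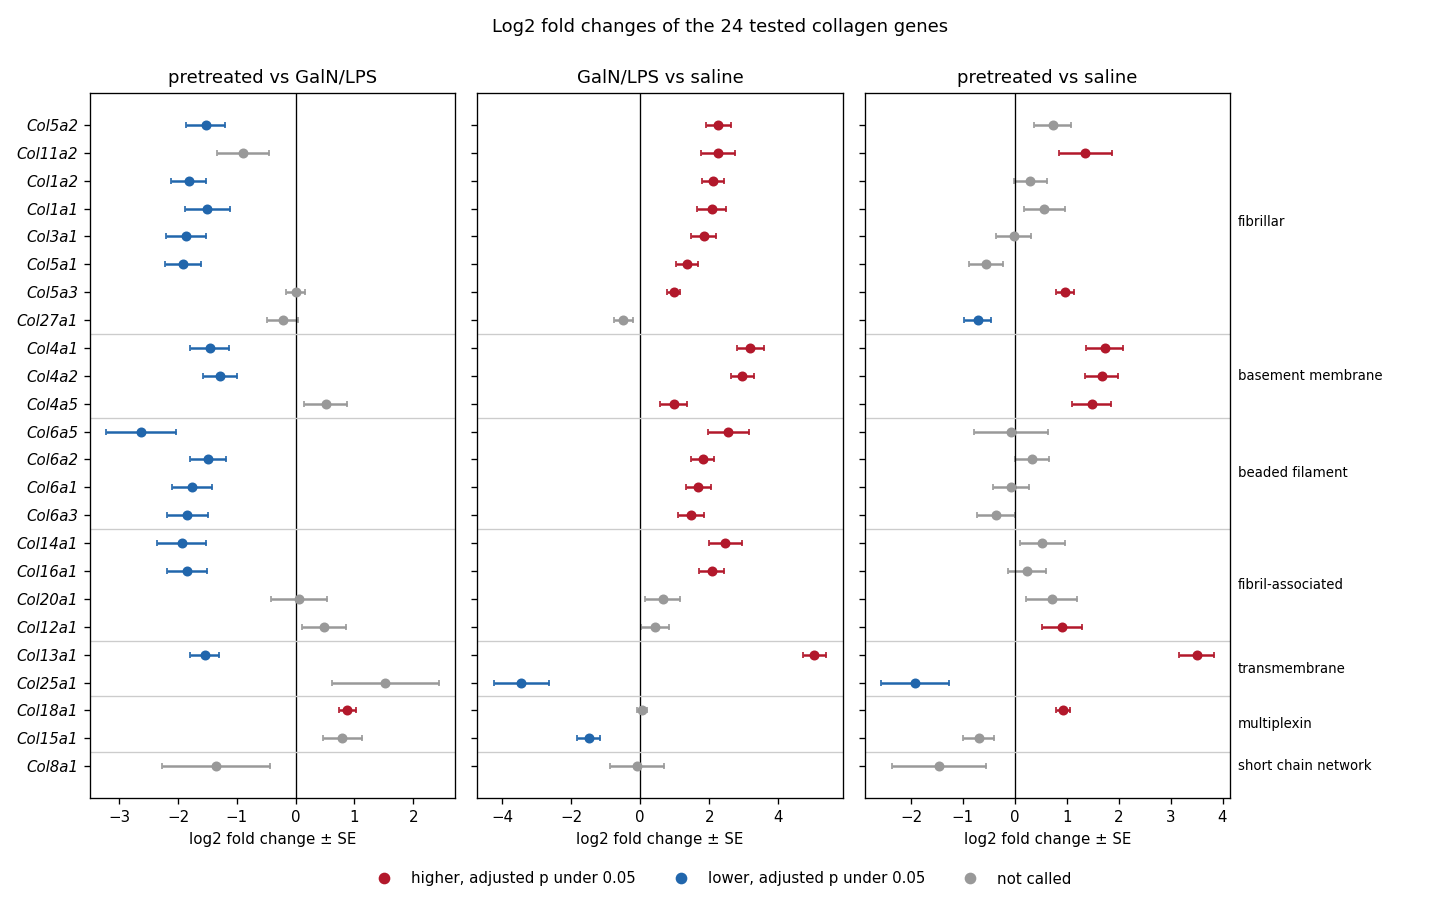
Log2 fold change ± SE of the 24 tested collagen genes in pretreated against GalN/LPS livers, GalN/LPS against saline livers and pretreated against saline livers, by class. Red points are higher and blue points lower at an adjusted p under 0.05. Col18a1 is the only red point of the left panel, and Col15a1 and Col25a1 are the blue points of the middle panel.

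The basement membrane chains Col4a1 and Col4a2, partners in the main type IV trimer, were the most abundant of the rising collagens. Col4a1 (ENSMUSG00000031502, chr8:11198423-11312826, minus strand) stood at 40.4, 108, 36.45 and 40.5 CPM in pretreated, 182, 106 and 179 in GalN/LPS, 28.3, 23.85 and 19.1 in dmPGE2 and 21.0, 11.1 and 19.1 in saline livers. All GalN/LPS libraries were above all saline libraries (3.19 ± 0.39, adjusted p = 4.73e-06), and pretreated 2 lay just above GalN/LPS 2, so those groups overlapped (-1.46 ± 0.33, adjusted p = 0.00194). Col4a2 (ENSMUSG00000031503, chr8:11312805-11449287, plus strand) stood at 29.05, 73.4, 28.9 and 29.9 CPM in pretreated, 120.2, 67.7 and 109 in GalN/LPS, 22.5, 14.0 and 17.0 in dmPGE2 and 13.2, 11.0 and 13.9 in saline livers. Its order of groups was that of Col4a1, with GalN/LPS above saline (2.96 ± 0.34, adjusted p = 2.54e-06) and pretreated below GalN/LPS but overlapping (-1.29 ± 0.29, adjusted p = 0.00191). Without pretreated 2 and GalN/LPS 2, left out after their values were seen, the difference of pretreated from GalN/LPS livers was -2.20 for Col4a1 and -1.96 for Col4a2. With all libraries, pretreated livers lay above saline livers by 1.73 for Col4a1 and 1.67 for Col4a2, with library totals by 1.10 and 1.04, and without pretreated 2 and GalN/LPS 2 by 1.20 for each. Col4a5, which joins Col4a6 in other type IV trimers and lies head to head with it on the X chromosome, stood at 5.32, 3.69, 7.01 and 5.075 CPM in pretreated, 2.34, 3.47 and 5.22 in GalN/LPS, 2.89, 1.74 and 2.53 in dmPGE2 and 1.65, 0.897 and 3.07 in saline livers. It overlapped between GalN/LPS and saline livers (0.97 ± 0.39, adjusted p = 0.0487) and lost that call in 12 of the 20 alternatives. Between pretreated and GalN/LPS livers Col4a5 did not pass the test (0.51 ± 0.36, adjusted p = 0.235), and pretreated livers were above saline livers (1.48 ± 0.38, adjusted p = 0.00267; adjusted p = 0.0859 with library totals).

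**Figure D3:**
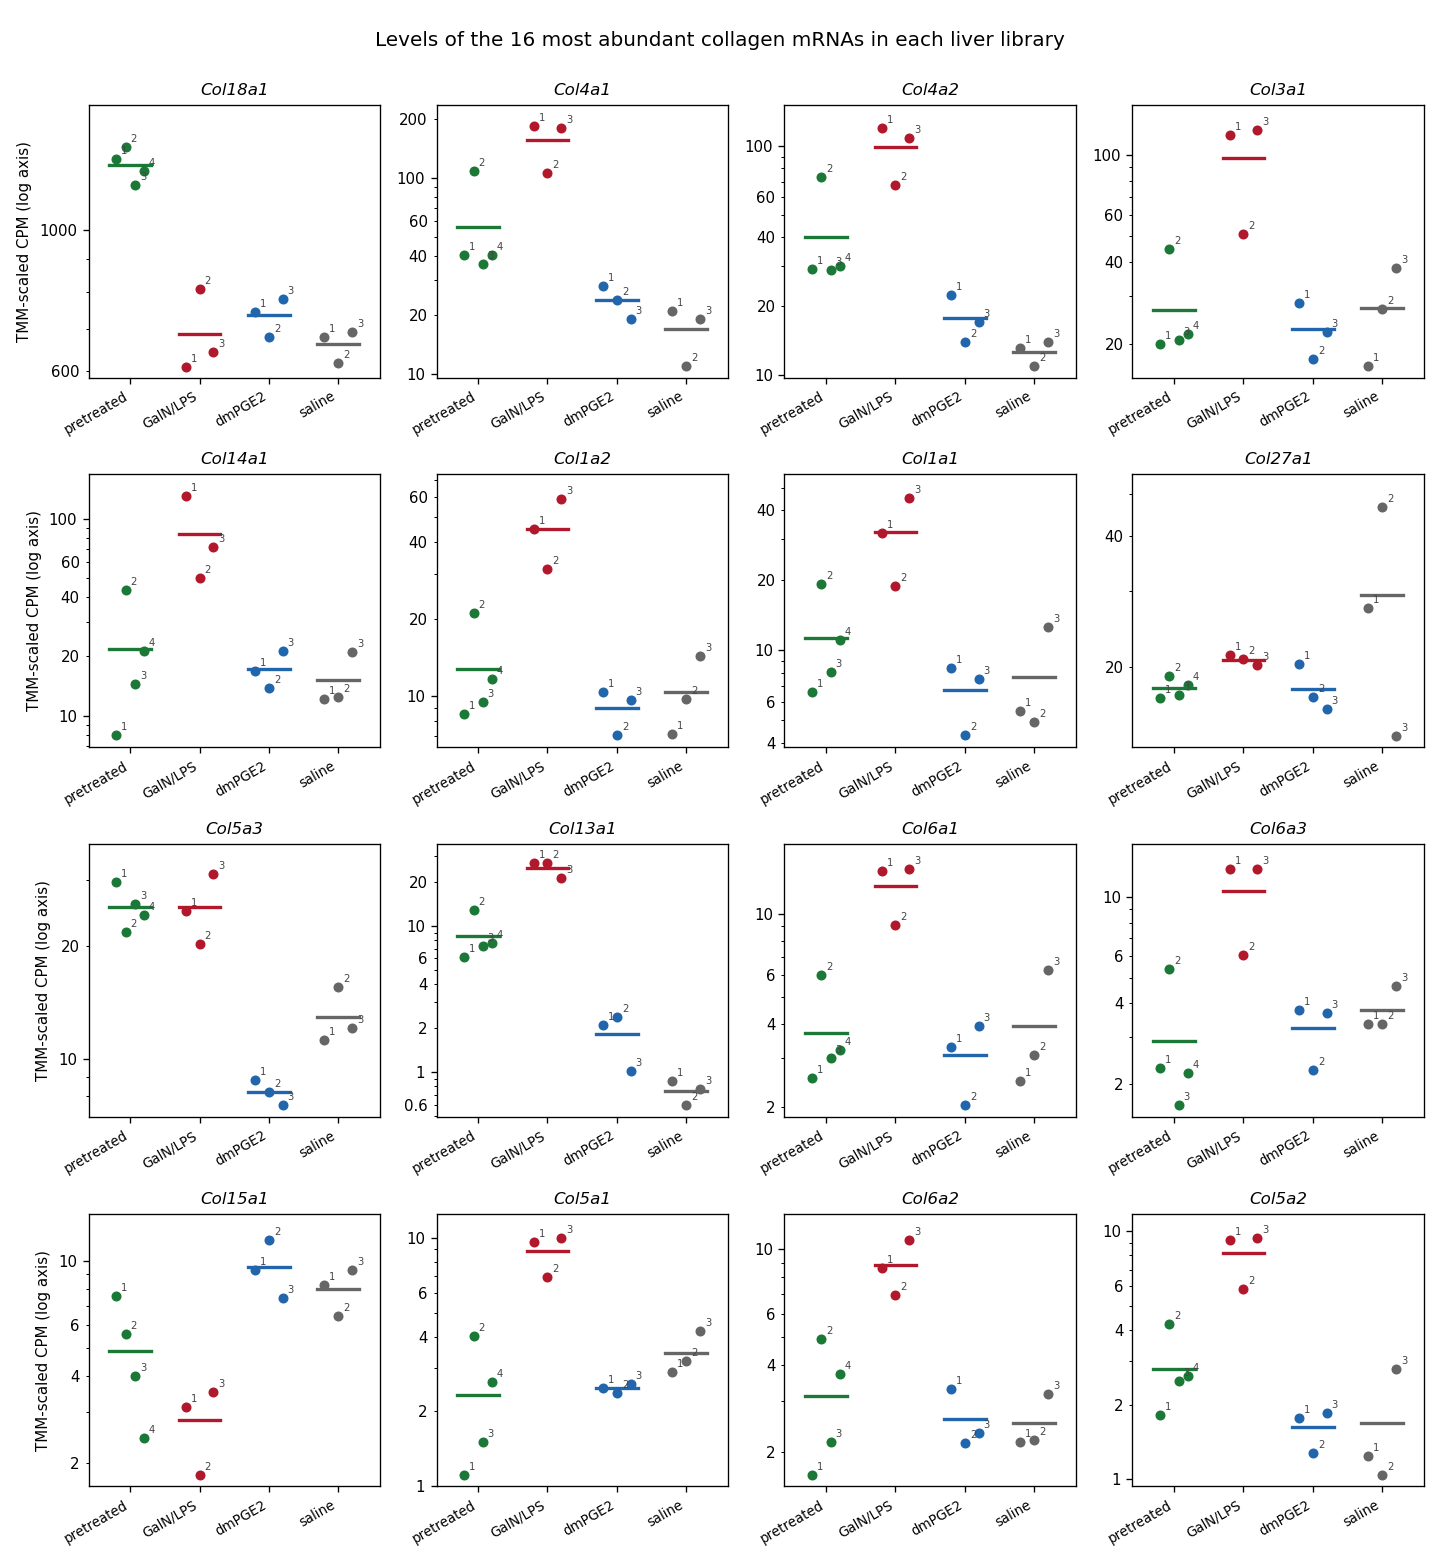
TMM-scaled CPM of the 16 collagen genes with the highest group mean, on log axes that do not start at 0. Each point is a library with its replicate number and each line a group mean, for pretreated, GalN/LPS, dmPGE2 and saline livers. Most panels have GalN/LPS livers on top, Col18a1 has pretreated livers on top, and Col15a1 has GalN/LPS livers among the lowest.

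Among the fibrillar chains, Col3a1, the chain of type III fibrils, (ENSMUSG00000026043, chr1:45311538-45349706, plus strand) stood at 19.9, 44.8, 20.6 and 21.7 CPM in pretreated, 118, 51.1 and 124 in GalN/LPS, 28.2, 17.5 and 22.1 in dmPGE2 and 16.6, 27.0 and 38.2 in saline livers. The GalN/LPS libraries were above the saline ones (1.84 ± 0.37, adjusted p = 0.000566) and pretreated livers below GalN/LPS livers (-1.86 ± 0.34, adjusted p = 0.000423), with no overlap in either. Between pretreated and saline livers it did not pass the test (-0.02 ± 0.34, adjusted p = 0.959). Type I fibrils are made of Col1a1 and Col1a2. Col1a2 (ENSMUSG00000029661, chr6:4504814-4541544, plus strand) stood at 8.49, 21.1, 9.51 and 11.7 CPM in pretreated, 44.9, 31.2 and 58.85 in GalN/LPS, 10.4, 7.02 and 9.62 in dmPGE2 and 7.11, 9.72 and 14.4 in saline livers, with no overlap in GalN/LPS against saline (2.11 ± 0.33, adjusted p = 5.28e-05) or pretreated against GalN/LPS livers (-1.82 ± 0.30, adjusted p = 0.000199). Col1a1 (ENSMUSG00000001506, chr11:94936224-94953042, plus strand) stood at 6.59, 19.3, 8.01 and 11.1 CPM in pretreated, 32.0, 18.9 and 45.2 in GalN/LPS, 8.40, 4.295 and 7.51 in dmPGE2 and 5.46, 4.88 and 12.6 in saline livers. Its GalN/LPS libraries were all above the saline ones (2.07 ± 0.42, adjusted p = 0.000663), and pretreated 2 lay above GalN/LPS 2 (-1.50 ± 0.38, adjusted p = 0.00413).

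Type V chains help set the width of fibrils. Col5a1 stood at 1.11, 4.03, 1.501 and 2.62 CPM in pretreated, 9.66, 6.93 and 10.04 in GalN/LPS, 2.47, 2.38 and 2.57 in dmPGE2 and 2.89, 3.19 and 4.23 in saline livers. Every other library lay below those of GalN/LPS (1.37 ± 0.32, adjusted p = 0.00205 against saline, and -1.92 ± 0.31, adjusted p = 0.000199 for pretreated against GalN/LPS). Col5a2, which lies tail to tail with Col3a1 on chromosome 1 at a distance of 24614 bases, stood at 1.83, 4.24, 2.50 and 2.62 CPM in pretreated, 9.18, 5.86 and 9.42 in GalN/LPS, 1.76, 1.28 and 1.86 in dmPGE2 and 1.24, 1.05 and 2.79 in saline livers. Every GalN/LPS library of Col5a2 exceeded those of all other groups (2.27 ± 0.36, adjusted p = 7.04e-05 against saline, and -1.53 ± 0.33, adjusted p = 0.00127 for pretreated against GalN/LPS). Col5a3, the less common type V chain, stood at 29.6, 21.9, 25.85 and 24.2 CPM in pretreated, 24.8, 20.3 and 31.1 in GalN/LPS, 8.81, 8.18 and 7.55 in dmPGE2 and 11.2, 15.5 and 12.15 in saline livers. Both injured groups were above saline for Col5a3, by 0.97 ± 0.18, adjusted p = 0.000227 in GalN/LPS livers and 0.97 ± 0.17, adjusted p = 0.000113 in pretreated livers. The injured groups overlapped each other (-0.00 ± 0.16, adjusted p = 0.989), and with library totals pretreated livers passed as lower than GalN/LPS livers (-0.54, adjusted p = 0.0275) and not called against saline (0.28, adjusted p = 0.23). Col11a2, a chain of cartilage type XI fibrils, was low, at 1.51, 1.09, 0.334 and 0.5075 CPM in pretreated, 1.54, 1.135 and 2.20 in GalN/LPS, 0.375, 0.348 and 0.3375 in dmPGE2 and 0.229, 0.349 and 0.432 in saline livers. It was above saline in GalN/LPS livers (2.26 ± 0.50, adjusted p = 0.00131), and the pretreated libraries spread from the saline range into that of GalN/LPS (-0.90 ± 0.44, adjusted p = 0.0907).

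Col27a1, a fibrillar chain known from cartilage, had no call in GalN/LPS against saline livers (-0.49 ± 0.28, adjusted p = 0.145). It stood at 17.0, 19.1, 17.3 and 18.2 CPM in pretreated, 21.3, 20.9 and 20.2 in GalN/LPS, 20.3, 17.1 and 16.1 in dmPGE2 and 27.4, 46.6 and 13.9 in saline livers. The injured groups were tight and the saline libraries lay both above and below them. Pretreated livers were called lower than saline livers (-0.71 ± 0.26, adjusted p = 0.0246), and without saline 2 that value was -0.21 (adjusted p = 0.402).

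All 4 tested type VI chains of beaded filaments rose with GalN/LPS, Col6a5 with the limit of the filter given above. Of the untested ones Col6a6 had 27 counts in GalN/LPS and 27 in saline livers. Col6a1 stood at 2.54, 6.01, 3.00 and 3.21 CPM in pretreated, 14.3, 9.08 and 14.5 in GalN/LPS, 3.30, 2.03 and 3.92 in dmPGE2 and 2.48, 3.09 and 6.245 in saline livers. GalN/LPS livers were above all other libraries (1.68 ± 0.36, adjusted p = 0.000914 against saline, and -1.76 ± 0.34, adjusted p = 0.000616 for pretreated against GalN/LPS). Col6a2, its neighbour on the same strand of chromosome 10, stood at 1.67, 4.92, 2.17 and 3.72 CPM in pretreated, 8.65, 6.93 and 10.8 in GalN/LPS, 3.30, 2.15 and 2.32 in dmPGE2 and 2.155, 2.19 and 3.17 in saline livers. The highest libraries were again those of GalN/LPS (1.81 ± 0.33, adjusted p = 0.00025, and -1.49 ± 0.31, adjusted p = 0.00104 for pretreated against GalN/LPS). Col6a3, the large chain of the same trimer, stood at 2.30, 5.40, 1.67 and 2.20 CPM in pretreated, 12.7, 6.05 and 12.7 in GalN/LPS, 3.79, 2.26 and 3.67 in dmPGE2 and 3.35, 3.34 and 4.66 in saline livers. No GalN/LPS library of Col6a3 overlapped another group (1.48 ± 0.37, adjusted p = 0.00298, and -1.84 ± 0.35, adjusted p = 0.000601). Col6a5 was near the limit of detection, at 0.159, 0.137, 0.167 and 0.338 CPM in pretreated, 1.01, 0.630 and 2.10 in GalN/LPS, 0.525, 0.464 and 0.127 in dmPGE2 and 0.138, 0.249 and 0.240 in saline livers. GalN/LPS 3 was the highest library of Col6a5 (2.56 ± 0.59, adjusted p = 0.00165, and -2.63 ± 0.59, adjusted p = 0.00171), and without it the values were 1.84 (adjusted p = 0.0233) and -2.04 (adjusted p = 0.018). Against saline livers no type VI chain passed the test in pretreated livers (0 of 4), with log2 fold changes from -0.36 for Col6a3 to 0.33 for Col6a2.

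Of the fibril-associated chains, Col14a1, which binds the surface of type I fibrils, (ENSMUSG00000022371, chr15:55307750-55520803, plus strand) stood at 7.94, 43.5, 14.5 and 21.3 CPM in pretreated, 130.3, 49.8 and 72.1 in GalN/LPS, 16.8, 13.8 and 21.2 in dmPGE2 and 12.2, 12.5 and 20.9 in saline livers. GalN/LPS livers were above all others (2.47 ± 0.47, adjusted p = 0.000348, and -1.94 ± 0.42, adjusted p = 0.00143 for pretreated against GalN/LPS), and without pretreated 2 the second value was -2.53. Col16a1, a minor chain of the same class, stood at 0.953, 3.07, 1.25 and 1.44 CPM in pretreated, 7.91, 4.16 and 6.20 in GalN/LPS, 1.69, 1.57 and 1.39 in dmPGE2 and 1.56, 1.10 and 1.68 in saline livers. GalN/LPS livers lay above every other library (2.07 ± 0.36, adjusted p = 0.000165, and -1.84 ± 0.34, adjusted p = 0.000457). Col12a1 and Col20a1, the remaining tested members, did not pass in either comparison, and their groups overlapped. Col12a1 ranged from 0.844 to 3.72 CPM over the 13 libraries, and Col20a1 from 0.232 to 1.91 CPM. Col20a1 shares 741 bases of its strand with another tested gene that had 294 counts to its 216, so its values are uncertain. Pretreated livers were called higher than saline livers for Col12a1 (0.91 ± 0.38, adjusted p = 0.0459), with an adjusted p of 0.633 under library totals.

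Col13a1, a transmembrane collagen of cell adhesion sites, had the largest fold change of the tested members. It (ENSMUSG00000058806, chr10:61838236-61979108, minus strand) stood at 6.11, 12.9, 7.34 and 7.61 CPM in pretreated, 26.9, 26.85 and 21.3 in GalN/LPS, 2.10, 2.38 and 1.01 in dmPGE2 and 0.871, 0.598 and 0.769 in saline livers. The groups followed each other without overlap between GalN/LPS, pretreated and saline livers. GalN/LPS livers were 33.1-fold above saline livers (5.05 ± 0.34, adjusted p = 6.85e-09), pretreated livers below GalN/LPS livers (-1.55 ± 0.25, adjusted p = 0.000163) and above saline livers (3.50 ± 0.33, adjusted p = 2.78e-07). All dmPGE2 libraries also lay above the saline ones, though the test was not passed (1.27 ± 0.37, adjusted p = 0.157; DESeq2 gave 1.27 with adjusted p = 0.0317, and edgeR without the filter 1.29 with adjusted p = 0.00154). Col25a1, a transmembrane collagen known from neurons, stood at 0.238, 0.342, 0.417 and 0.338 CPM in pretreated, 0.106, 0.189 and 0.0512 in GalN/LPS, 0.712, 0.987 and 0.675 in dmPGE2 and 0.550, 0.349 and 2.93 in saline livers. GalN/LPS libraries were the lowest, with the limit of the filter given above. The difference from saline was -3.44 ± 0.80, adjusted p = 0.00178, and saline 3 was well above the other saline libraries. Without saline 3 that value was -1.96 (adjusted p = 0.0186), and the call of pretreated below saline livers (-1.92 ± 0.65, adjusted p = 0.0164) was lost, at -0.43 (adjusted p = 0.512).

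The multiplexins are collagens of basement membrane zones that carry long sugar side chains. Col18a1, whose C-terminal fragment is endostatin, (ENSMUSG00000001435, chr10:77052178-77166548, minus strand) stood at 1297, 1353, 1179 and 1241 CPM in pretreated, 609.8, 808.5 and 642 in GalN/LPS, 744, 679 and 780.3 in dmPGE2 and 679, 618 and 692 in saline livers. Pretreated livers were above every other library, by 0.88 ± 0.14, adjusted p = 0.000166 over GalN/LPS and 0.93 ± 0.14, adjusted p = 3.18e-05 over saline livers, and GalN/LPS overlapped saline livers (0.05 ± 0.15, adjusted p = 0.796). With library totals pretreated over GalN/LPS was 0.39 (adjusted p = 0.018) and pretreated over saline 0.26 (adjusted p = 0.0935). Beside it, all 8 hepatocyte markers listed (such as Alb, albumin, and Cps1, of the urea cycle) were higher in pretreated than in GalN/LPS livers, with a median of 0.83, and 2 of 8 with library totals. The part of these shifts in the Col18a1 value was not tested. Col15a1, the other multiplexin, (ENSMUSG00000028339, chr4:47208161-47313167, plus strand) stood at 7.54, 5.60, 4.00 and 2.45 CPM in pretreated, 3.13, 1.83 and 3.53 in GalN/LPS, 9.30, 11.8 and 7.47 in dmPGE2 and 8.255, 6.48 and 9.27 in saline livers. GalN/LPS livers were below all saline and dmPGE2 libraries (-1.49 ± 0.33, adjusted p = 0.00134), and the pretreated libraries spread across the gap (0.79 ± 0.33, adjusted p = 0.0515). Col8a1, the tested short chain network collagen of vessel walls, ranged from 0 to 0.6 CPM and passed no test.

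dmPGE2 alone called no collagen, as it called no gene of the 14280 (0.0% higher and 0.0% lower) with edgeR's quasi-likelihood test. At an unadjusted p under 0.05 there were 3 collagens and 1990 genes in all. Collagen log2 fold changes against saline ran from -0.72 for Col27a1 to 1.27 for Col13a1, with a median of 0.01. Without the filter 1 was higher (Col13a1) and 2 lower (Col27a1 at -0.69 and Col5a3 at -0.63), where 1.08% of the 26810 genes were higher and 0.638% lower. DESeq2 called Col13a1 higher, with 134 of the 14280 genes higher and 146 lower. A miss of the threshold at 3 libraries a group does not show that levels were equal. For Col4a1 the difference was 0.48 ± 0.37 and for Col1a1 -0.17 ± 0.43 (SE).

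The effect of dmPGE2 in injured livers less that in uninjured livers (the interaction) was called in 15 of 24 collagens, 13 lower and 2 higher, where 19.6% and 15.4% of all genes were. The collagen median of this difference was -1.47 and that of all genes -0.11. Col6a5 is among the 13 lower ones, and the limit of the filter named for it holds here too. The interval after dmPGE2 may not be the same in the injured and uninjured arms. Col13a1 had -2.82 ± 0.44, adjusted p = 0.00063, Col4a2 -1.79 ± 0.44, adjusted p = 0.00752 and Col4a1 -1.94 ± 0.50, adjusted p = 0.00908. Col1a2 had -1.62 ± 0.44, adjusted p = 0.0123, and Col1a1, its partner, did not pass (-1.33 ± 0.57, adjusted p = 0.0807). On the higher side stood Col18a1 (0.74 ± 0.20, adjusted p = 0.0128) and Col5a3 (0.66 ± 0.24, adjusted p = 0.0444), and both lost the call with library totals, at 0.17 and 0.06. Of the 15 calls, 6 held in every alternative run, and 7 collagens rather than 13 were lower without GalN/LPS 1, without GalN/LPS 3 or without dmPGE2 1. In those runs 26, 24 and 27 collagens were tested, and the lower share of all genes also fell, to 14.5%, 14.0% and 14.1%.

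Pretreated livers against saline livers called 8 collagens higher and 2 lower, where 34.8% and 30.2% of all genes were, so the share of higher calls lay near that of all genes. The 3 tested basement membrane chains were among the higher ones, with Col13a1, Col18a1, Col5a3, Col11a2 and Col12a1, and Col25a1 and Col27a1 were lower. For Col25a1 the limit of the filter named above holds here too. With library totals 3 were higher (Col4a1, Col4a2 and Col13a1) and 4 lower, where 11.8% and 47.6% of all genes were, so that the higher share was again near that of all genes. Without saline 3, 1 was lower (27.4% of all genes), and without pretreated 2, 4 were (29.2% of all genes). Of the type I, III and VI chains none passed this test with all 13 libraries, and without saline 3 Col1a1 did, at 1.13 (adjusted p = 0.0286).

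Within pairs of partner chains the proportions can be read from a ratio per library. The FPKM ratio of Col1a1 to Col1a2 was 1.65 ± 0.147 in pretreated, 1.32 ± 0.156 in GalN/LPS, 1.39 ± 0.202 in dmPGE2 and 1.36 ± 0.364 in saline livers (SD), and 0.952 to 1.80 over all 13 libraries. Col4a1 to Col4a2 was 1.22 ± 0.0777, 1.40 ± 0.0592, 1.21 ± 0.271 and 1.17 ± 0.265 in the same order, and 0.891 to 1.51 in all. Col6a1 to Col6a2 was 2.37 ± 0.541, 2.73 ± 0.358, 2.30 ± 0.790 and 2.87 ± 0.797, and 1.64 to 3.74 in all. The pretreated and GalN/LPS libraries did not overlap in the first pair of ratios, and no test was made of these ratios. A ratio within a library does not depend on its scaling.

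**Figure D4:**
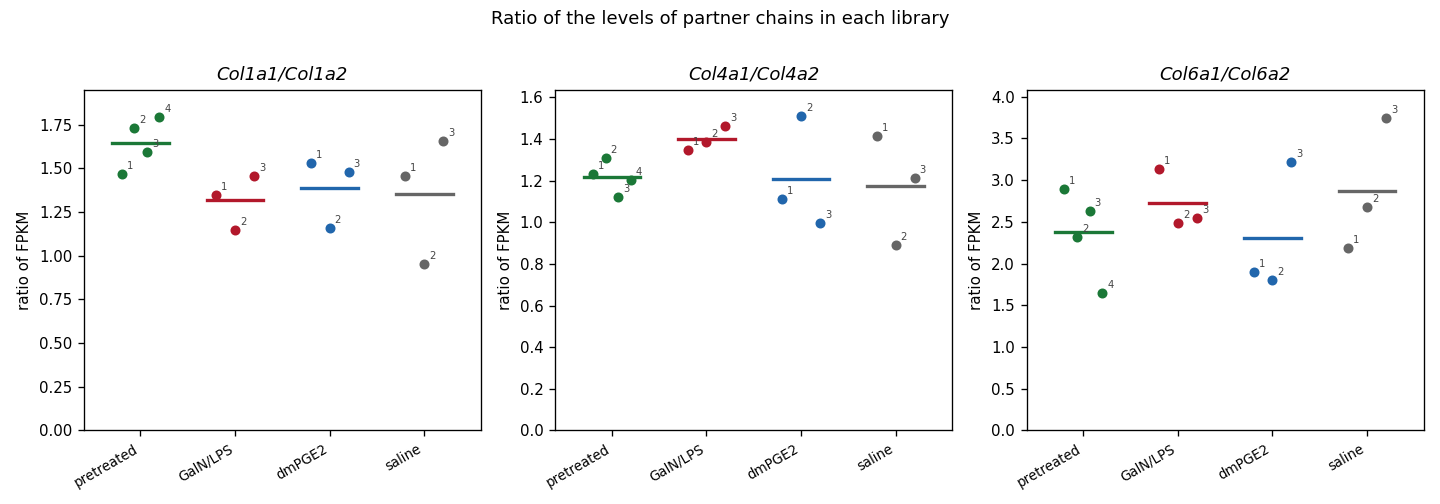
Ratio of deposited FPKM of Col1a1 to Col1a2, Col4a1 to Col4a2 and Col6a1 to Col6a2 in each library of the pretreated, GalN/LPS, dmPGE2 and saline groups, with group means as lines. Col1a1 to Col1a2 stays between 0.952 and 1.80 in all 13 libraries.

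Genes that make, mature, anchor or break down collagen were counted in 7 lists. In GalN/LPS against saline livers 12 of 20 tested genes of collagen folding and modification were higher and 1 lower (median 0.70). They include Creb3l1, a transcription factor of collagen secretion (3.72 ± 0.43, adjusted p = 2.4e-06), Plod3, a lysyl hydroxylase (1.10 ± 0.15, adjusted p = 1.95e-05), P4ha1, a subunit of prolyl hydroxylase (2.43 ± 0.35, adjusted p = 2.36e-05), and P3h2, a prolyl 3-hydroxylase (3.29 ± 0.49, adjusted p = 3.97e-05). In pretreated against GalN/LPS livers 5 were higher and 5 lower, and 1 and 10 with library totals, which is near the shares of all genes given above for each scaling. P4hb, the partner subunit of prolyl hydroxylase and the most abundant gene of the list, was among the higher ones (0.78 ± 0.16, adjusted p = 0.000866). P4ha1 (-1.64 ± 0.31, adjusted p = 0.00056) and Creb3l1 (-1.13 ± 0.34, adjusted p = 0.0107) were lower there, and Plod3 (-0.03 ± 0.14, adjusted p = 0.853) and P3h2 (-0.90 ± 0.39, adjusted p = 0.0601) did not pass.

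Propeptide removal and crosslinking had 8 of 10 tested genes higher with GalN/LPS (median 1.86), and 9 lower and 1 higher, Bmp1, in pretreated against GalN/LPS livers (median -1.41). Bmp1, which cuts the C-propeptide, had 0.48 ± 0.14, adjusted p = 0.00872. It, P4hb, Ctsl, Mmp19, Lama3, Lamb3 and Fn1 are named with their values seen, as the most abundant or the higher genes of their lists. Their values are with TMM factors, and with library totals 4.31% of all genes, rather than 24.4%, were higher in this comparison. The crosslinking enzyme Loxl2 was above saline in GalN/LPS livers (2.62 ± 0.35, adjusted p = 1.19e-05) and lower in pretreated livers than in GalN/LPS livers (-1.74 ± 0.31, adjusted p = 0.000377). Loxl4, of the same family, had 3.21 ± 0.62, adjusted p = 0.00038 in the first and -2.21 ± 0.54, adjusted p = 0.00323 in the second comparison. Adamts2 and Adamts14, which cut the N-propeptide, had 2.27 ± 0.37, adjusted p = 8.47e-05 and 2.15 ± 0.41, adjusted p = 0.000337 with GalN/LPS, and -1.46 ± 0.33, adjusted p = 0.0019 and -1.39 ± 0.37, adjusted p = 0.00526 in pretreated against GalN/LPS livers.

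Collagen breakdown and its inhibitors had 9 of 14 higher and 2 lower with GalN/LPS (median 1.92), and 10 lower and 2 higher in pretreated against GalN/LPS livers (median -1.38). Its summed level went the other way, at 1496 to 1720 CPM in pretreated and 849.8 to 912.7 CPM in GalN/LPS livers. Most of that sum was Ctsl, a lysosomal protease, which with Mmp19 was higher in pretreated livers. Ctsl averaged 1465 ± 117 CPM in pretreated livers, against 577.5 ± 56.5 CPM with GalN/LPS alone (SD, 1.34 ± 0.19, adjusted p = 6.13e-05), and Mmp19 had 0.47 ± 0.16, adjusted p = 0.0191. Mmp8, the collagenase of neutrophils, was 7.39 ± 0.31, adjusted p = 8.02e-11 above saline in GalN/LPS livers, and pretreated livers were below GalN/LPS livers (-1.05 ± 0.18, adjusted p = 0.000251). Mmp13, another collagenase, had 8.25 ± 0.44, adjusted p = 6.65e-10 and -2.73 ± 0.25, adjusted p = 2.96e-06 in the same comparisons. Mmp9, a gelatinase, had 4.96 ± 0.33, adjusted p = 6.75e-09 and -1.35 ± 0.24, adjusted p = 0.000379, and the membrane-bound Mmp14 2.05 ± 0.19, adjusted p = 2.14e-07 and -0.95 ± 0.17, adjusted p = 0.000347.

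Collagen receptors had 6 of 7 higher with GalN/LPS (median 2.06) and 4 of 7 lower in pretreated against GalN/LPS livers (median -0.89). The receptor kinases Ddr2 and Ddr1 had 2.86 ± 0.38, adjusted p = 1.16e-05 and 2.75 ± 0.40, adjusted p = 3.11e-05 with GalN/LPS, and -1.65 ± 0.33, adjusted p = 0.000863 and -1.39 ± 0.35, adjusted p = 0.00386 in pretreated against GalN/LPS livers. The integrin chain Itga1 had 1.37 ± 0.18, adjusted p = 1.1e-05 and -0.65 ± 0.17, adjusted p = 0.00416. Itgb1, its common partner, had 1.04 ± 0.13, adjusted p = 5.98e-06, and did not pass in pretreated against GalN/LPS livers (0.27 ± 0.12, adjusted p = 0.0655).

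Partners of the basement membrane had 13 of 15 higher with GalN/LPS (median 2.41), and 12 lower and 2 higher in pretreated against GalN/LPS livers (median -1.18, and 0 higher with library totals). The 2 higher ones were the laminin chains Lama3 (0.53 ± 0.17, adjusted p = 0.0161) and Lamb3 (0.74 ± 0.24, adjusted p = 0.0182). Nid1, which links type IV collagen to laminin, had 2.92 ± 0.40, adjusted p = 1.62e-05 and -1.64 ± 0.35, adjusted p = 0.00122, and Hspg2, perlecan, 2.48 ± 0.25, adjusted p = 6.1e-07 and -1.40 ± 0.22, adjusted p = 0.000154. Lama5, a laminin chain, had 2.41 ± 0.21, adjusted p = 1.25e-07 and -1.18 ± 0.18, adjusted p = 0.000144, and Agrn, agrin, 1.65 ± 0.13, adjusted p = 4.43e-08 and -0.66 ± 0.12, adjusted p = 0.000377. Partners of fibrils had 10 of 12 higher with GalN/LPS (median 2.15), and 11 lower and 1 higher in pretreated against GalN/LPS livers (median -1.44). The higher one was Fn1, fibronectin, also a plasma protein of hepatocytes, at 2354 ± 178 CPM in pretreated and 1123 ± 316 CPM in GalN/LPS livers (SD, 1.07 ± 0.21, adjusted p = 0.000652). With it, the summed level of the list was higher in every pretreated library (2297 to 2771 CPM) than in any GalN/LPS library (1679 to 2017 CPM). Fbn1, fibrillin, had 3.35 ± 0.52, adjusted p = 5.46e-05 and -1.86 ± 0.44, adjusted p = 0.0026, and Fbln1, fibulin, 2.25 ± 0.30, adjusted p = 1.26e-05 and -1.82 ± 0.28, adjusted p = 0.000123. Of the small proteoglycans that bind fibrils, Bgn had 2.34 ± 0.36, adjusted p = 4.9e-05 and -1.46 ± 0.32, adjusted p = 0.00154, and Dcn 2.86 ± 0.36, adjusted p = 6.72e-06 and -1.57 ± 0.31, adjusted p = 0.000845.

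Signals of transforming growth factor beta (TGF-beta) and platelet-derived growth factor (PDGF), which are known to act on stellate cells, had 11 of 20 higher and 1 lower with GalN/LPS (median 1.69). In pretreated against GalN/LPS livers 19 of 20 were lower (median -1.16). Tgfb1, a TGF-beta ligand, had 2.69 ± 0.20, adjusted p = 2.35e-08 and -1.41 ± 0.18, adjusted p = 2.67e-05. Ctgf, a matrix protein induced by TGF-beta, had 4.81 ± 0.53, adjusted p = 1.7e-06 and -1.54 ± 0.41, adjusted p = 0.00528. Skil, a repressor of the pathway, had 1.92 ± 0.19, adjusted p = 5.65e-07 and -1.23 ± 0.17, adjusted p = 7.08e-05, and Pdgfb, a PDGF ligand, 2.90 ± 0.38, adjusted p = 1.04e-05 and -1.18 ± 0.32, adjusted p = 0.00635. The background shares of all genes given above hold for these counts, and dmPGE2 alone called no member of any list.

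Markers of stellate and sinusoidal endothelial cells moved in the direction of most collagens. So did most Kupffer cell and cholangiocyte markers, given below, and hepatocyte markers did not. In bulk tissue fewer cells of a type and less RNA per cell cannot be told apart. Of all genes 27.4% were higher and 25.6% lower with GalN/LPS, and 24.4% higher and 30.1% lower in pretreated against GalN/LPS livers. Of 12 tested stellate cell and fibroblast markers 10 were higher with GalN/LPS (median 1.90) and 10 lower in pretreated against GalN/LPS livers (median -1.30). Their summed level was 101.7 to 273.8 CPM in pretreated, 325.1 to 605.9 in GalN/LPS, 69.4 to 100.7 in dmPGE2 and 73.3 to 122.3 in saline livers. Ecm1 alone made up 225 CPM of it in GalN/LPS livers on average, and Tagln was too low to test. Ngfr, a stellate cell receptor, had 3.87 ± 0.55, adjusted p = 2.44e-05 with GalN/LPS and -2.78 ± 0.48, adjusted p = 0.000271 in pretreated against GalN/LPS livers, and Ecm1 2.14 ± 0.32, adjusted p = 3.34e-05 and -1.30 ± 0.28, adjusted p = 0.00146. All 12 sinusoidal endothelial markers were higher with GalN/LPS (median 2.93), and all 12 lower in pretreated against GalN/LPS livers (median -1.53). They summed to 210.1 to 461.6 CPM in pretreated, 717.4 to 904.2 in GalN/LPS, 108.9 to 145.6 in dmPGE2 and 99.7 to 117.8 in saline livers. Clec4g, a lectin of these cells, had 2.33 ± 0.17, adjusted p = 1.54e-08 and -1.71 ± 0.15, adjusted p = 1.97e-06, and the scavenger receptor Stab1 2.48 ± 0.20, adjusted p = 4.11e-08 and -1.08 ± 0.17, adjusted p = 0.000166.

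Kupffer cell and macrophage markers had 7 of 8 higher with GalN/LPS and 8 of 8 lower in pretreated against GalN/LPS livers, and summed to 257.4 to 408.5 CPM in pretreated, 560.4 to 918.7 in GalN/LPS, 162.8 to 225.5 in dmPGE2 and 125.4 to 165.2 in saline livers. Cholangiocyte markers had 7 of 7 higher with GalN/LPS, and 4 lower and 1 higher in pretreated against GalN/LPS livers. They summed to 187.4 to 230.7, 188.5 to 258.2, 102.9 to 106.4 and 99.6 to 118.8 CPM in the same order of groups. Mesothelial markers summed to at most 8.18 CPM in any library, Wt1 was at 0 in saline livers, and both tested members were higher with GalN/LPS and lower in pretreated against GalN/LPS livers. Those members, Msln and Gpm6a, averaged 1.956 and 1.915 CPM in GalN/LPS livers and 0.2038 and 0.5431 CPM in saline livers. They may have passed the filter through GalN/LPS livers alone, which favours these directions, so no support is drawn from them. Hepatocyte markers had 0 of 8 higher and 2 lower with GalN/LPS, where the lower share was near the 25.6% of all genes. In pretreated against GalN/LPS livers 8 of 8 were higher, where 24.4% of all genes were, and 2 of 8 with library totals. Pretreated 2, the library with the highest collagen sum of its group, was also the highest of its group in the stellate and endothelial sums. The part of any of these cells in the collagen values was not tested.

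**Figure D5:**
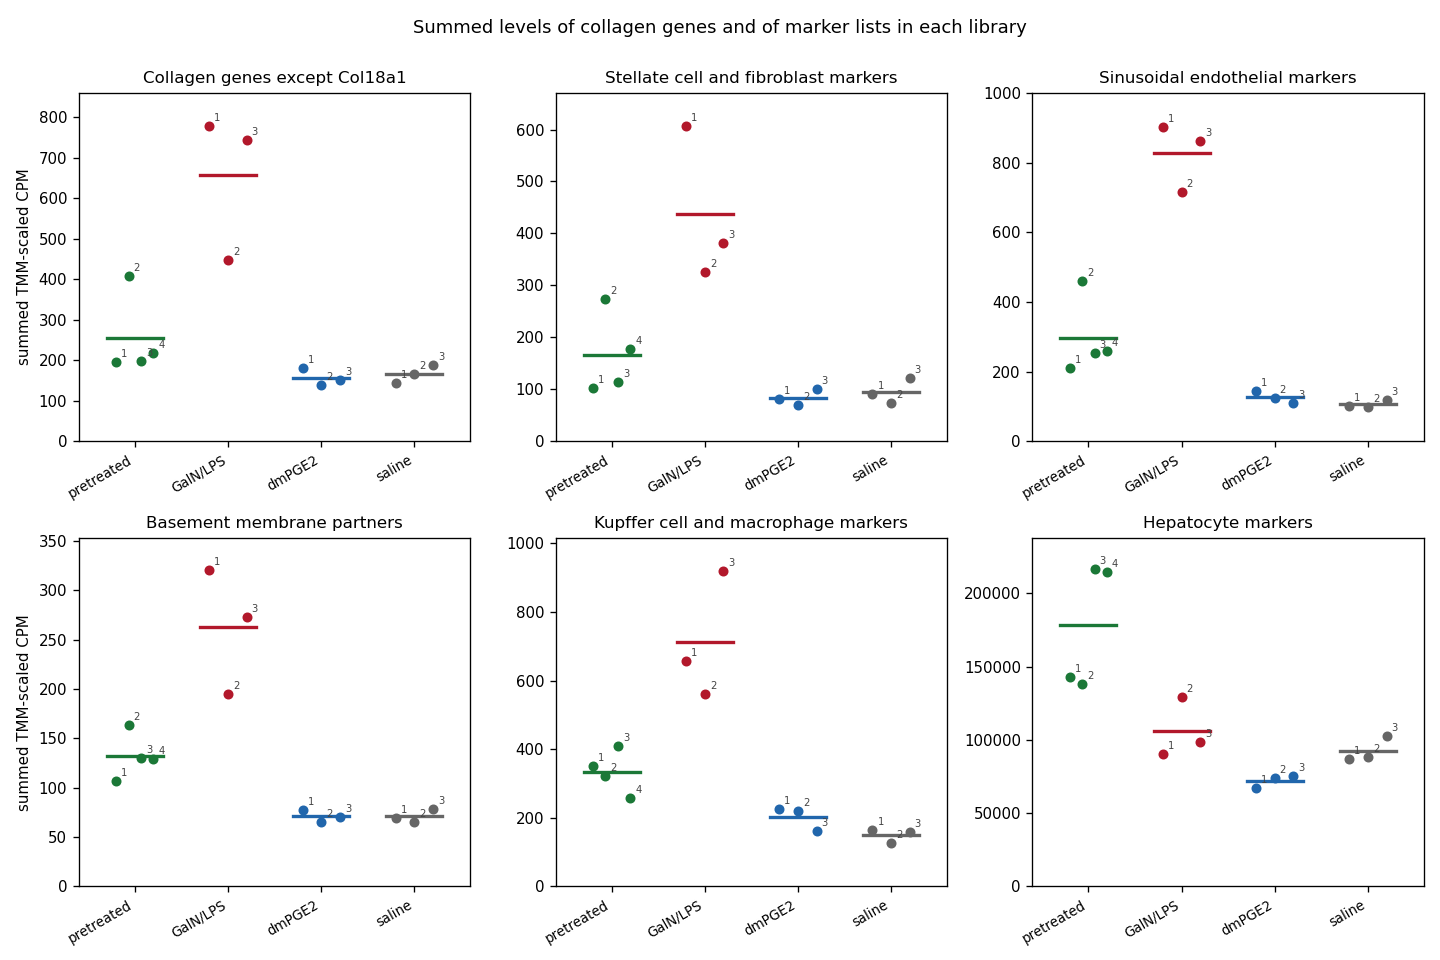
Summed TMM-scaled CPM per library of the collagen genes without Col18a1 and of 5 lists (stellate cell and fibroblast, sinusoidal endothelial, basement membrane partners, Kupffer cell and macrophage, hepatocyte), for pretreated, GalN/LPS, dmPGE2 and saline livers, with group means as lines. GalN/LPS libraries are the highest in every panel but that of hepatocyte markers, where pretreated libraries are the highest.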

How the data were processed

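The authors deposited raw read counts per Ensembl gene, checked here to be whole numbers, and FPKM of the same libraries, in which the authors divided each count by gene length and a denominator per library. Per the submitters' processing notes, the aligner was HISAT2 and the build GRCm38/mm10. Not given in the sources used here are versions, the counter, its annotation and whether strand was used. Per the labels' protocols, 1 µg of total RNA went into each NEBNext Ultra library. Each column carries a group name and a number that matched 1 sample title, and the 3 columns named ALF were taken as GalN/LPS.

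The filter of edgeR 4.0.16 (R 4.3.3) by group kept 14280 genes with 99.92% of all counts. All 13 libraries were fitted together, with group as the only term, TMM factors and a common dispersion of 0.0390 (9 residual and 6.80 prior degrees of freedom), and tested two-sided with the quasi-likelihood F test and Benjamini-Hochberg adjustment. Simulated data were used to test the fit. No pair of replicates agreed within sampling noise. Members are not independent replicates of a condition. Counts and floors cover counting error only.

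Values per library are given for members past the test in the interaction or in any comparison but pretreated against saline, with a group mean of at least 1 CPM, and Col27a1 was added after its values were seen. From lists, the genes printed are among the 4 with the smallest adjusted p in GalN/LPS against saline livers, all 4 for the pathway lists, with others added after their values were seen where the text says so. The members and lists were chosen with earlier results of these data known. Ccn2 is in the table as Ctgf, and Pdgfrb stands in 2 lists. Alternatives were library totals, size factors of DESeq2 in edgeR, DESeq2 1.42.0, no filter, a fit of the compared groups alone, a replicate block, each library left out, and pretreated 2 with GalN/LPS 2 left out.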

Additional observations from a re-analysis of the deposited data

Results flagged for a closer look

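Of 30 collagen values examined in the 4 pretreated libraries, 6 had a library far from the others by Dixon's test, where chance alone gives about 1 in 20. Pretreated 2 was the high library for Col4a1 (108.2 CPM), Col4a2 (73.4 CPM), Col3a1 (44.8 CPM), Col6a3 (5.40 CPM) and the summed collagens without Col18a1 (408.1 CPM), which share that library and are not independent. Pretreated 4 was the high library for Col6a5 (0.338 CPM, near the limit of detection). Groups of 3 were not examined in this way.

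By the interaction of edgeR's quasi-likelihood test, the effect of dmPGE2 was called different between injured and uninjured livers in 15 of 24 collagens. Of these 13 were lower and 2 higher, where 19.6% and 15.4% of all genes were. Only 6 of the 15 calls held in every alternative run, and Col18a1 and Col5a3 lost theirs with library totals. The log2 difference was -2.82 for Col13a1, -1.94 for Col4a1 and -1.79 for Col4a2. Among fibrillar chains it was -1.62 for Col1a2, -1.60 for Col3a1, -1.50 for Col5a2 and -1.45 for Col5a1, and 0.66 for Col5a3. Type VI chains had -1.42 for Col6a1, -1.54 for Col6a2, -1.63 for Col6a3 and -3.45 for Col6a5. Since Col6a5 may have passed the filter through GalN/LPS livers alone, which favours a lower value here, no support is drawn from it. Fibril-associated chains had -2.13 for Col14a1 and -1.93 for Col16a1, and the multiplexin Col18a1 had 0.74. The time after dmPGE2 may differ between these groups, and its part was not tested.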

How the results depend on the processing

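The 15 calls of pretreated against GalN/LPS livers held in all 20 alternatives (300 of 300 values), and 18 of 19 calls of GalN/LPS against saline livers, all but Col4a5, held in each alternative that gave them a value. Col25a1 was not kept for testing when the GalN/LPS and saline libraries were fitted alone. No called value reversed. In pretreated against saline livers 3 of 10 calls held throughout, and in the interaction 6 of 15.

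With library totals, pretreated against saline livers gave 3 higher and 4 lower collagens, and the interaction gave 0 higher. The shares of all genes were 11.8%, 47.6% and 1.27%, in that order. Size factors of DESeq2 in edgeR, DESeq2, no filter, the replicate block, and leaving out pretreated 2 with GalN/LPS 2 each gave 1 higher in the interaction. Of all genes 13.9%, 15.3%, 6.22%, 10.9% and 19.4% were higher there, in that order. Leaving out pretreated 2 with GalN/LPS 2 was chosen after seeing the data. It gave 5 lower in pretreated against saline livers (29.0% of all genes). Without the filter, dmPGE2 against saline gave 1 higher and 2 lower, pretreated against GalN/LPS gave 2 higher, and pretreated against saline 4 lower. There 40 collagens were tested, and 1.08%, 0.638%, 11.4% and 18.2% of all genes were so called. DESeq2 gave 1 higher for dmPGE2 against saline (0.938% of all genes). Fitting GalN/LPS and saline libraries alone gave 1 lower (25.5% of all genes). Leaving out each library in turn gave 1 to 2 higher and 7 to 14 lower in the interaction (7 without GalN/LPS 1, GalN/LPS 3 or dmPGE2 1), 1 to 2 higher in pretreated against GalN/LPS, and 1 to 4 lower in pretreated against saline livers (1 without saline 3, 4 without pretreated 2). In these runs 9.43% to 18.4% of all genes were higher and 14.0% to 21.0% lower in the interaction. In pretreated against GalN/LPS 17.0% to 24.8% were higher, and in pretreated against saline livers 26.8% to 32.7% were lower. A group left with 2 libraries shares the spread estimated over all groups. The cause of these shifts was not tested.

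With the replicate number as a block, pretreated against GalN/LPS gave 2 higher, pretreated against saline 0 lower and the interaction 1 higher and 9 lower. The shares of all genes were 20.8%, 28.3%, 10.9% and 15.1%, in that order. The numbers do not pair the samples: over 18 same-numbered pairs the correlation of deviations was -0.315 to 0.0873, none over 0.1, and a library correlated best with its own number in 12 of 36 cases. Pretreated 4 carries no weight in the block.

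Depth limits the 20 untested genes and, among the tested ones, Col6a5, Col8a1, Col11a2, Col20a1 and Col25a1, whose levels were about 3 CPM or less in every library.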
